A study of Mus musculus with 2 samples.

Results

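The baseline transcriptome of mDE6 cells was read from the array of vehicle-treated cells, which is 1 of the 2 arrays of the series. mDE6 is a mouse cell line that the labels call odontogenic epithelial, that is, derived from the epithelium that forms the enamel of a tooth. The cells had been kept with the solvent DMSO for 6 h, and the labels print its concentration with a slash, so that no dose is given here. The study's methods call the control cells untreated and state that the line came from another laboratory and was grown in a serum-containing medium. Strain, genotype, sex, passage number and clonality were not given in the sources used here. The other array, of cells treated with the GSK-3 inhibitor CHIR99021, was not used, and no comparison between conditions was made.

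The RNA was measured in 1 colour, Cy3, on an Agilent array of mouse gene probes. A spot entered when it was no control spot and carried no outlier flag, which left 55972 of the 56605 distinct probes. A gene was called on when at least 1 of its probes was marked well above background by the scanner software. On this rule 13924 of the 24640 named genes were on, which is 56.5% of them. A further 3357 genes were above background only, which means that a probe differed from its background but by less than the software's stricter limit, and 7359 were not above background. With 1 array there is no replicate check, no value below carries an error between cultures, and no test was run.

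The tooth germ is built by an epithelium and a mesenchyme that signal to each other. Epithelial cells are held together by the adhesion proteins E-cadherin and EpCAM and by desmosomes, and they contain keratin filaments. The dental epithelium gives rise to ameloblasts, which secrete the enamel matrix. The mesenchyme, which stems from the neural crest, makes a collagen-rich matrix, carries vimentin filaments and gives rise to the odontoblasts that form dentin.

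The data went against the cell type label at the genes that define an epithelium. Cdh1 (E-cadherin), Epcam and Krt8, the partner of Krt18 in simple epithelia, were not above background at any of their probes. Genes of the mesenchyme were on and bright, as were most regulators of the dental mesenchyme, whereas some transcription factors shared with the dental and basal epithelium were on too. The cells are therefore described below by their genes, and no other cell type name is given to them. In a bulk sample, fewer cells of a type and less RNA per cell cannot be told apart.

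The probes of 8 genes on which this reading rests are shown by their first 30 bases, 5′ to 3′, because each gene is seen only through the sequence its probe captures.
Cdh1: acattctaacgggaaaaaggagacaagacc
Epcam: aaatcagcaaaatatgagaaggctgagata
Krt14: tgtccctataggcttcactctttacttgac
Trp63: acacgatcgaaacgtacaggcagcagcagc
Vim: gcagtttttcaggagcgcaagatagatttg
Col1a1: ttttcctttgcattcacctttcaaacttag
Prrx1: agcgagccatgctggccaataaaaacgctt
Pax9: gagaagaaacctatccccctcaaagggctt

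Each of these probes has 60 bases, and the file gives its place in the mouse build mm9 but not the exon. The Cdh1 probe lies at chr8:109193812-109193871 and had a signal of 5.51 scanner units. The Epcam probe spans chr17:88048972-88049800, a stretch longer than the probe, and had a signal of 5.23. Both signals lay near the median of the negative control spots, 5.35. The Krt14 probe, at chr11:100064495-100064554 on the minus strand, had a signal of 48.5, and the Trp63 probe, at chr16:25871159-25871218, one of 2306. The Vim probe at chr2:13504232-13504291 had a signal of 52302, and the Col1a1 probe at chr11:94813075-94813134 one of 122887. The Prrx1 probe at chr1:165187974-165188033, on the minus strand, had a signal of 14806, and the Pax9 probe at chr12:57811169-57811228 one of 798. The first pair was at the background of the array and the other 6 were marked well above it by the software. The Krt14 signal nevertheless lay below the 99th percentile of the negative control spots, 112.

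Levels are given below as the percentile of a gene's probe among all probes of the array, using the brightest probe that was on, or the brightest probe where none was. A percentile places a probe on this array. It does not order the abundance of different genes, because probes differ in how well they capture their transcripts. The dimmest probe that was on stood at percentile 51.2, with a signal of 23.7, and the median of the named genes that were on was 82.5. No spot was saturated. Of 308 negative control spots, which match no mouse transcript, 5 were marked well above background. As a further reference, chosen after the values were seen, 56 of 1090 olfactory receptor genes (5.14%) and 14 of 257 vomeronasal receptor genes (5.45%) were on. These receptors are made mainly in the sensory neurons of the nose, and their shares stand as a low reference for the call.

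**Figure D1:**
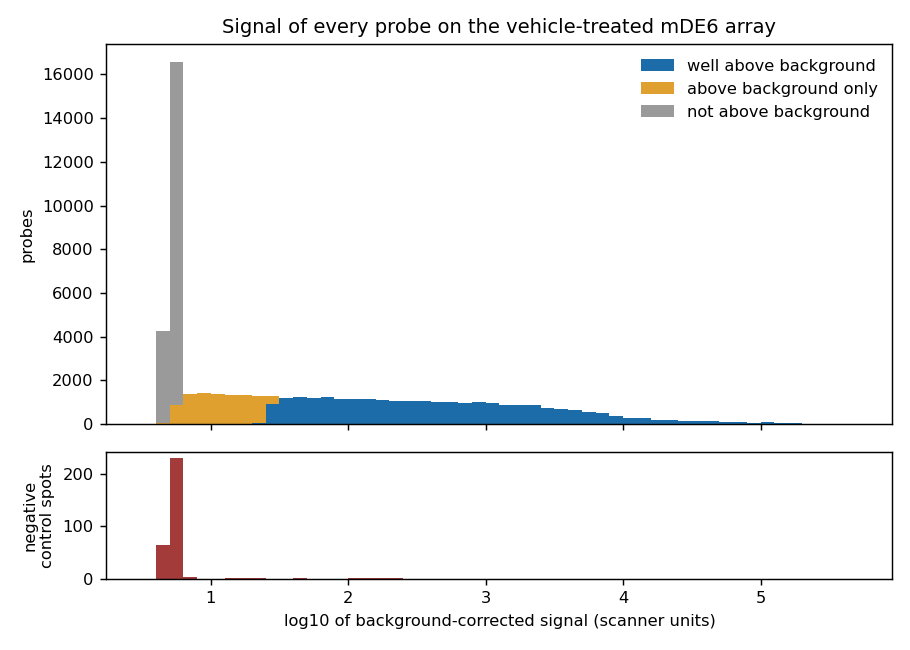
Number of probes (vertical axis) by log10 signal in scanner units (horizontal axis) on the vehicle array, stacked by call, with the negative control spots in the lower panel. Nearly all negative control spots lie in the peak of probes not above background, and 26695 probes (47.7%) were well above background.

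Of the 40 measured genes of simple and general epithelium, 13 were on (32.5%), against 56.5% of all named genes, and the list's median percentile was 42.1 against 61.4 for all named genes. None reached the 90th percentile. The tight junction genes Ocln and Cldn4 stood at percentiles 7.49 and 5.32, and Dsp, the desmosome's link to keratin, at 25.7, and none of them was above background. Krt19 was above background only. Krt18 was on at percentile 52.0, close to the dimmest probe called on, and Krt7 at 59.2. The brightest members were Ovol2, a transcription factor that maintains epithelia, at 89.4 with 1 of its 2 probes on, and Perp, a p53 target found in desmosomes, at 87.5. Esrp1, a splicing regulator of epithelial cells, and Grhl2, an activator of Cdh1, were above background only, and Esrp2 was on at 60.9. The count depended on the rule. Under the less strict call, which 70.3% of all named genes met, 26 of the 40 genes were on. With over 50% of a gene's probes required, which 45% of all named genes met, 7 were on, and 6 were on above the 99th percentile of the negative control spots, which 46.6% of all named genes passed. Each of these shares lay below that of all named genes, and Cdh1, Epcam and Krt8 were not on under any of the 3 rules.

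Of 29 genes of stratified and basal epithelium 14 were on (48.3%), against 56.5% of all named genes, and the median percentile was 51.8 against 61.4. With over 50% of a gene's probes required 9 were on (31.0%, against 45%). Under the less strict call 21 were on (72.4%, against 70.3% of all named genes). Trp63, the master regulator of basal epithelium, had 4 probes with signals of 2306, 77.1, 22.5 and 5.33, of which the first pair was on. Itga6, the basal integrin, was on at 87.9 through 3 of 5 probes, and Cdh3 (P-cadherin) at 80.5. The keratins of this layer were dim. Krt14 stood at 58.1, Krt17 at 60.5 and Krt16 at 68.7. Col17a1 and Lamb3 of the hemidesmosome were above background only, and Dsg3 was not above background. The only probe of Krt5, the partner of Krt14, carried an outlier flag for its local background. With that flag ignored its signal was 5.51, not above background. Over the whole keratin family, looked up after the values were seen, 13 of 53 genes were on, and their median percentile was 60.5 among those on. Krt222 was the only one above the 75th percentile.

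The mesenchymal genes showed the opposite picture. Of 40 measured genes of mesenchyme and fibroblasts, 36 were on (90%, against 56.5% of all named genes), the median percentile was 92.8 against 61.4, and 24 stood at or above the 90th percentile. Col1a2 and Col1a1, the chains of type I collagen, stood at 99.99 and 99.7, Sparc, a collagen-binding matrix protein, at 99.99, fibronectin (Fn1) at 99.7 and vimentin (Vim) at 99.1. Col1a1 was on at 3 of 4 probes, with its brightest at 122887 units, and the remaining probe of Col1a1 was above background only. Postn, on at 4 of 4 probes, stood at 97.9, Ogn at 97.2 and Mmp2 at 96.9. The transcription factors Snai2, Snai1, Zeb2, Twist1, Zeb1 and Twist2, which repress Cdh1 and drive epithelial cells toward a mesenchymal state, were all on, at 93.8, 93.2, 86.4, 80.5, 79.7 and 79.2. Cdh2 (N-cadherin) stood at 92.5 through 1 of 2 probes and Cdh11, the cadherin of mesenchyme, at 90.9 through both. Pdgfrb and Pdgfra, receptors of mesenchymal cells, stood at 88.0 and 83.9. Fap was above background only, and Lum, Tcf21 and Meox2 were not above background, so the list was not on throughout. With over 50% of a gene's probes required, 33 of the 40 were on (82.5%, against 45%).

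**Figure D2:**
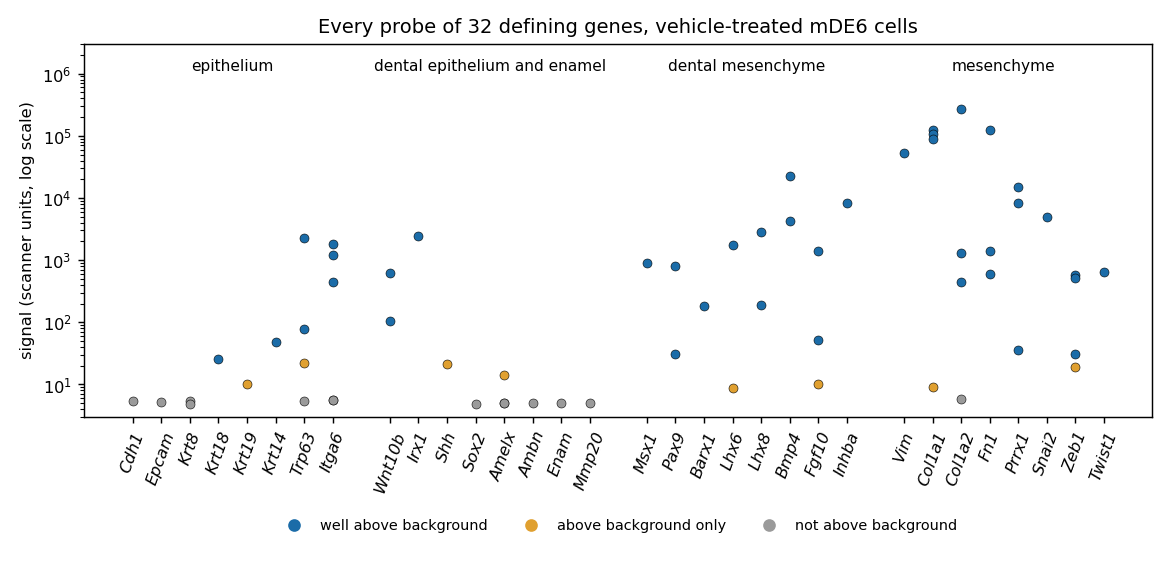
Signal of every probe (vertical axis, scanner units, log scale) of 32 genes that define epithelium, dental epithelium and enamel, dental mesenchyme and mesenchyme, coloured by call. The probes of Cdh1, Epcam and Krt8 lie at the floor, and Vim, Col1a1, Col1a2 and Fn1 each have a probe at or above the signal of Vim, 52302 units, while some genes also have dim probes.

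Genes of the dental mesenchyme were nearly all on, 23 of 25 (92%, against 56.5% of all named genes), with a median percentile of 81.7 against 61.4. Bmp4, the signal that moves odontogenic potential to the mesenchyme, stood at 98.1 with signals of both probes well above background. Inhba, the activin subunit of early tooth mesenchyme, stood at 95.9. The homeobox factors of this tissue were on, Prrx2 at 97.9, Prrx1 at 97.4, Six2 at 94.7, Lhx8 at 90.9, Lhx6 at 87.7, Msx1 at 83.1 and Barx1 at 70.3, and the paired-box factor Pax9 stood at 82.0. Six2 and Lhx6 were each on at 1 of 2 probes. Fgf10, a mesenchymal growth factor, stood at 86.3 and Runx2, needed for osteoblasts and tooth growth, at 70.8. Fgf3 was above background only and Alx4 was not above background. With over 50% of a gene's probes required 18 of 25 were on (72%, against 45% of all named genes), and among the 17 genes with a probe in the upper rows of the array, counted there only, 11 were on (64.7%, against 54.3% of all named genes with a probe there).

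Dental epithelium genes were on in 16 of 28 cases, a share of 57.1% that lies near the background of 56.5%. Under the less strict call the share was 82.1%, against 70.3% of all named genes. Irx1 stood at 90.1, Pitx1 at 87.5 and Wnt10b, a Wnt ligand of the early dental epithelium, at 80.3 with both probes on. Dlx2 and Msx2 in this list also belong to the dental mesenchyme list. Other members were not on. The signalling molecule genes Shh and Fgf8 were above background only, as were Fgf20 and the ectodysplasin receptor gene Edar, and Fgf4, Bmp2 and the stem cell factor Sox2 were not above background.

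Of 20 ameloblast and enamel genes, 3 were on, Fam83h at 88.9, Dlx3 at 87.5 and Klk4, a protease of enamel maturation, at 61.9. The enamel matrix genes Ambn, Enam and Amtn and the protease gene Mmp20 were not above background, with signals of 5.08, 5.09, 5.01 and 4.99. Amelx, which codes for the main enamel protein, had 3 probes with signals of 14.1, 5.11 and 4.99, the first of them above background only. No gene of the enamel matrix itself was on. On the dentin and bone side 9 of 16 genes were on (56.2%), a share near the 56.5% of all named genes. Spp1 (osteopontin) stood at 98.5, Alpl at 87.3, Sp7, a factor of osteoblasts and odontoblasts, at 80.1 and Ibsp at 71.9. Dspp, the dentin matrix gene of odontoblasts, was above background only, and Dmp1 and Sost of osteocytes were not above background.

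Markers of other cell types the culture could hold were on in part, and under the main rule no list of them was on more often than the 56.5% of all named genes. Under the less strict call, which 70.3% of all named genes met, the adipocyte list was at 80%. The smooth muscle and pericyte, neural crest and glia, and melanocyte lists were then each at 75%, and the other such lists at 70.6% or below. Of 16 smooth muscle and pericyte genes 9 were on (56.2%). They included Acta2 at 98.2, Tagln at 98.1, Cnn1 at 94.2 and Smtn at 92.3, which build or bind contractile filaments, whereas the filament gene Des was above background only and Lmod1, an actin-binding protein, Myocd, the activator of the smooth muscle programme, and Rgs5 of pericytes were not above background. Mcam and Notch3 of the smooth muscle and pericyte list stood at 94.9 and 90.6, while Cspg4 and Abcc9 were above background only. Kcnj8 of that list was not above background. Of 16 endothelial genes 6 were on (37.5%). Egfl7 stood at 88.1, Eng at 86.9 and Flt1, a VEGF receptor, at 83.4 with 3 of 4 probes on, while Cdh5, Tek, Tie1 and Kdr were not above background. Among 18 leukocyte genes 9 were on (50%). Cd14, Csf1r and Cd68 of monocytes and macrophages stood at 82.3, 80.4 and 79.6, with 2 of 2, 2 of 2 and 2 of 3 probes on. Itgam was on at 94.95 through 1 of 2 probes, and Ptprc, which marks all leukocytes, at 87.6 through 1 of 7, the other 6 having signals between 4.91 and 7.15. Laptm5 and Adgre1 were not above background. The share of such cells, if any, in the culture was not tested.

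Of 17 tendon and cartilage genes 9 were on (52.9%). Scx, the tendon factor, stood at 93.6, Col2a1, the main cartilage collagen, at 83.0 and Comp at 58.5, while Tnmd of tendon and Acan of cartilage were not above background. Of 10 adipocyte genes 5 were on, with Fabp4, a fatty acid carrier, at 90.01 through both probes and Pparg at 84.0, and Adipoq was not above background. Of 20 neuronal genes 8 were on, with Snap25 at 93.6 through 1 of 3 probes and Syp at 80.4, and Rbfox3 and Stmn2 were not above background. In the neural crest and glia list 7 of 16 were on. Tfap2b stood at 78.6 and Sox9 at 63.6, each with both probes on, and Sox10, Ngfr and Erbb3 were not above background. Skeletal muscle had 4 of 13 genes on, with Pax3, a factor of muscle precursors and neural crest, at 83.3 and Acta1 at 81.7, and Myf5 and Myog were not above background. Liver and endoderm had 3 of 16, with Afp at 86.0 and Foxa1 at 75.3, and Alb was not above background. The melanocyte list had 3 of 8 genes on, or 1 of 7 without uneven spots (55.9% of all named genes were on without them), and the list of pluripotent and germ cells 7 of 16. In the list of mesothelium and kidney 7 of 14 were on, with Wt1 at 90.4, Msln at 88.6 and Osr1 at 87.8 beside Six2. With over 50% of a gene's probes required, which 45% of all named genes met, the counts fell to 6 of 17 for tendon and cartilage, 3 of 10 for adipocytes, 4 of 20 for neurons, 3 of 16 for neural crest and glia, 5 of 18 for leukocytes, 3 of 16 for pluripotent and germ cells and 4 of 14 for mesothelium and kidney.

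**Figure D3:**
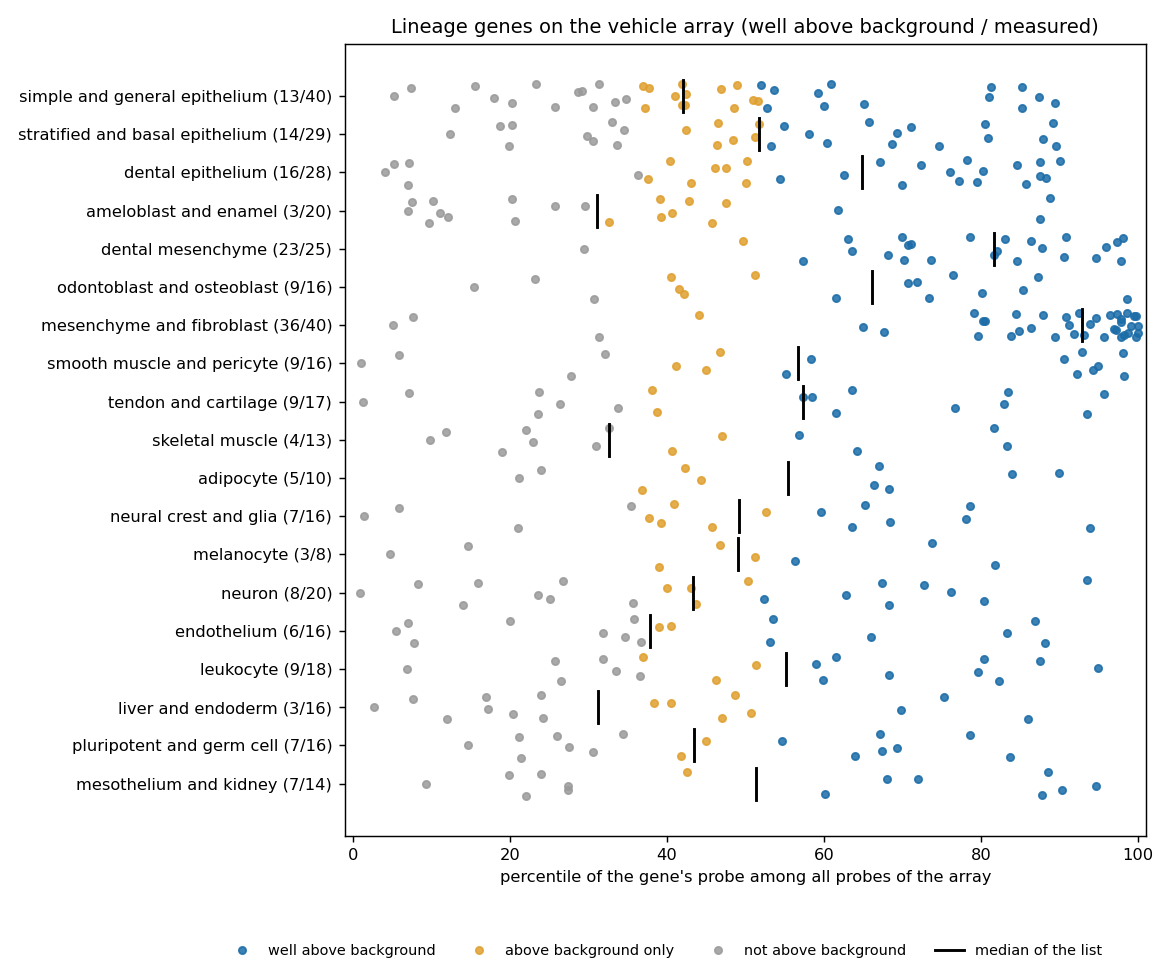
Percentile on the array (horizontal axis) of every measured gene of 19 lineage lists (rows), coloured by call, with the list's median as a black bar and its count on over measured in the label. The mesenchyme and fibroblast list (36 of 40) and the dental mesenchyme list (23 of 25) lie at the right, whereas the ameloblast and enamel list (3 of 20) lies mostly below the 50th percentile.

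Many homeobox genes are used by cells according to their position in the body. Of 37 Hox genes, which pattern the trunk and hindbrain, 9 were on (24.3%, against 56.5% of all named genes), among them Hoxd8 at 85.7 and Hoxa7 at 83.7. Hoxa3 was on at 1 of 3 probes, and 5 of the 9 stood at 61.9 or below. Of 88 other homeobox genes 55 were on (62.5%), a share near that of all named genes. They included factors that act in the head and jaw as well as elsewhere, Shox2 (93.8), Lhx2 (83.5), Dlx1 (73.7), Dlx5 (71.1) and Alx1 (70.3), and the Hox cofactor Meis1 (85.5). Pax6 had 6 probes, none of them on, and Nkx2-5, Gbx2 and Vax1 were not above background.

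Most genes of the Wnt pathway were on at the receptors and inside the cell. Of 21 receptors and co-receptors 20 were on (95.2%, against 56.5% of all named genes), with Ryk at 97.04, Fzd1 at 92.8, Fzd2 at 90.2, Lrp6 at 86.3 and Lrp5 at 81.9, and only Fzd10 was not above background. When over 50% of a gene's probes had to be on, the count was 12 of 21 (57.1%, against 45% of all named genes). Fzd3 was on through an uneven spot only. Inside the cell 19 of 22 genes were on. Ctnnb1 (β-catenin) stood at 91.0, Gsk3b, a kinase that CHIR99021 inhibits, at 92.3, Axin1 at 91.2, Tcf7l2 at 84.1 and Tcf7l1 at 76.4. Lef1 had 3 probes with signals of 239, 5.57 and 4.69, of which the first was on. The feedback targets Axin2 and Nkd1, which β-catenin activity induces in many cells, were above background only, and the signals of the Axin2 probes were 7.23 and 5.90. Of 18 Wnt ligand genes 9 were on (50%, near the 56.5% of all named genes), among them Wnt5b (87.3), Wnt4 (85.8), Wnt5a (82.1), Wnt10b (80.3) and Wnt1 (78.4).

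The class 3 semaphorins, secreted guidance cues, were on in 6 of 7 cases (85.7%, against 56.5% of all named genes). Counted in the upper rows of the array only, 4 of 7 were on (57.1%, against 54.3% of all named genes with a probe there). Sema3a lost its call there. Sema3c stood at 97.4, Sema3f at 89.8, Sema3b at 84.6, Sema3e at 78.5 and Sema3a at 74.7, the last with 2 of 3 probes on, and Sema3g was above background only. Of their receptors and signal mediators 13 of 20 were on (65%), a share near that of all named genes. Nrp2 stood at 96.1 and Nrp1, the receptor subunit that binds Sema3A, at 90.1 with 5 of 7 probes on. The signalling plexins Plxnd1, Plxna1, Plxna3 and Plxna2 stood at 94.9, 87.5, 77.1 and 71.2, while Plxna4 was above background only.

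Of 7 FGF receptor and co-receptor genes 5 were on (71.4%, against 56.5% of all named genes), or 3 with over 50% of a gene's probes required (42.9%, against 45%), on opposite sides of all genes. Fgfr1 stood at 97.4 with 4 of 4 probes on, whereas Fgfr2 and Fgfr3 stood at 67.8 and 79.2. Of the listed FGF family genes 11 of 21 were on (52.4%, near the 56.5% of all named genes), with Fgf7 at 97.8 and Fgf23 at 94.0. The count was 9 of 20 without uneven spots and 7 of 21 with over 50% of a gene's probes required. Fgf7 acts from mesenchyme on epithelium, and Fgf23 is a bone hormone that regulates phosphate. Its co-receptor gene Kl was not above background. Of the BMP, activin and TGF-β receptors 12 of 14 were on (85.7%, against 56.5%), with Acvr1 at 94.5, Tgfbr2 at 92.6, Bmpr2 at 91.6 and Bmpr1a at 86.5, and of their ligands 15 of 22 (68.2%), with Tgfb3 at 96.1. Bmp2 and Bmp7 were not above background.

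In the Hedgehog pathway 9 of 14 genes were on (64.3%, against 56.5% of all named genes), or 5 with over 50% of a gene's probes required (35.7%, against 45%), so that this list too lay on opposite sides of all genes under the 2 rules, and the 3 ligand genes were not on. Smo stood at 95.9, Cdon at 93.2, Gas1 at 92.3, Gli3 at 88.3 and Ptch1 at 69.5. Smo was on at 1 of 2 probes. Shh and Ihh were above background only and Dhh was not above background. Gli1, a target of the pathway, was on at 63.6 with 1 of 2 probes, and Gli2 was above background only. In the Notch pathway 8 of 16 genes were on (50%, near the 56.5% of all named genes), or 4 with over 50% of a gene's probes required. The 8 were the receptors Notch3 (90.6), Notch2 (89.7), Notch1 (72.4) and Notch4 (60.4), the mediator Rbpj (96.8), the ligand Jag1 (76.7) and the targets Hey1 (60.4) and Hes5 (56.3). Hes1 was above background only, and Jag2, Dll4, Hey2 and Nrarp were not above background.

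Of the ectodysplasin and TNF-type receptors 10 of 13 were on (76.9%, against 56.5% of all named genes). In the ectodysplasin pathway, which sets the number and shape of teeth, Edar was above background only, and Edaradd, the adaptor that Edar needs, was not above background. Eda2r, the receptor of the other ectodysplasin isoform, stood at 66.0 and Tnfrsf19 at 80.3. In the list of ErbB, Met, Igf and other growth factor receptors 17 of 24 were on (70.8%, against 56.5%), with Axl at 98.2, Ddr2, a collagen receptor, at 93.7, Erbb2 at 89.4, Met at 85.4, Egfr at 84.6 and Igf1r at 80.0. Kit, Ret, Erbb3 and Kdr were not above background. Of 26 integrin subunits 18 were on at 1 probe or more (69.2%, against 56.5% of all named genes) and 10 at over 50% of their probes (38.5%, against 45%), so that the list lay on opposite sides of all genes under the 2 rules. Itga11, a collagen receptor of fibroblasts, stood at 98.2, Itgb1 at 98.0 and Itgb5 at 97.04, whereas Itgb6, the subunit of epithelia and ameloblasts, was not above background at either probe. Of 24 nuclear hormone receptors 20 were on (83.3%, against 56.5%), or 13 with over 50% of a gene's probes required (54.2%, against 45%), with Rxra at 96.9, Nr3c1, the glucocorticoid receptor gene, at 92.5 and Vdr, the vitamin D receptor gene, at 92.0, and Esr1 and Pgr were not above background at any of 7 and 4 probes.

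**Figure D4:**
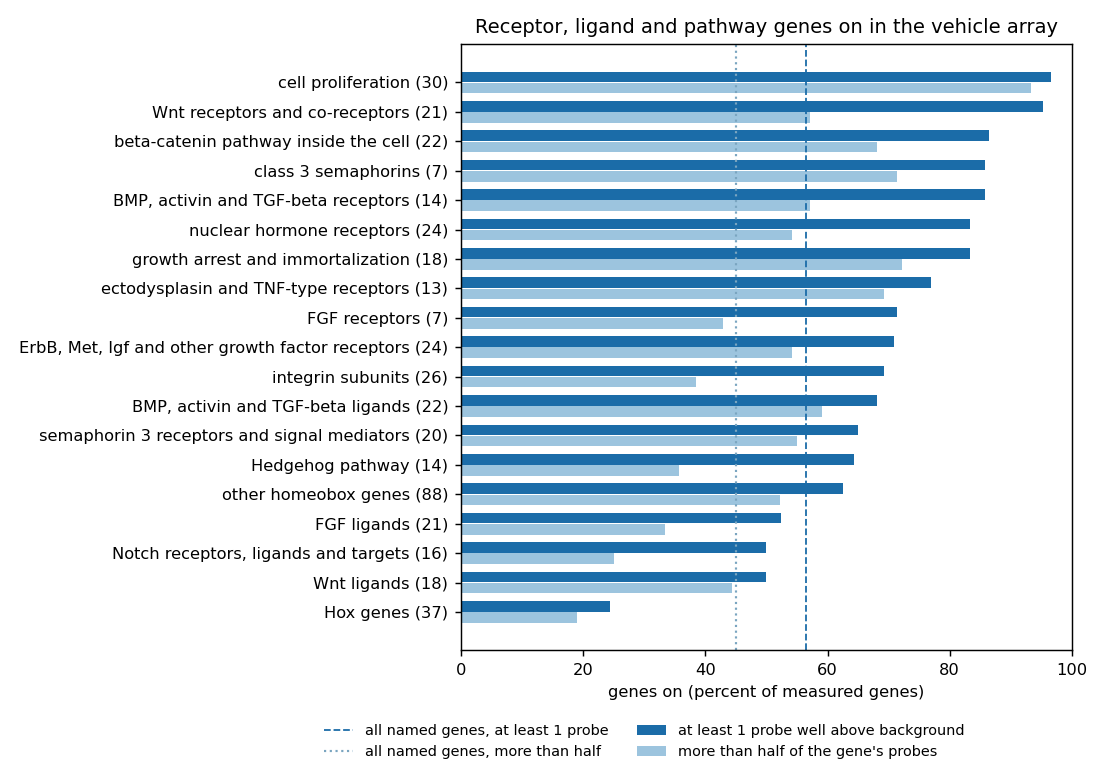
Percent of measured genes on (horizontal axis) for 19 lists of pathway, receptor, ligand, homeobox and cell cycle genes (rows, number measured in the label), with at least 1 probe well above background (dark bars) or most of the probes (light bars). The lines mark all named genes under the same rules, 56.5% and 45%, and the Hox genes are the list farthest below them.

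Proliferation genes were on almost throughout, 29 of 30 (96.7%, against 56.5% of all named genes), with a median percentile of 91.4. Ccnd2 and Cdk4, which start the cell cycle, stood at 98.8 and 98.5, Birc5 at 96.3, Mki67 at 92.9 and Top2a at 92.9, and only Ccne2 was above background only. Of the genes of growth arrest and immortalization 15 of 18 were on (83.3%). Cdkn2a, whose locus codes for p16 and p19Arf, stood at 98.5 and its neighbour Cdkn2b at 97.8, each with both probes on, and Cdkn1a at 78.3 with 1 of 3. Trp53 stood at 82.9 and its target Mdm2 at 94.7. Tert, the catalytic subunit of telomerase, was above background only. Of 6 sex-linked genes only the Y-linked Kdm5d was on, at 56.5 through 1 of 6 probes, and Xist, Ddx3y, Eif2s3y and Uty were not above background. All 16 reference genes were on, at percentiles from 78.7 for Tbp to 99.97 for Ppia and Actb.

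The 30 brightest genes held 12 genes named for ribosomal proteins, among them Rps18 (signal 288011), with further genes of protein synthesis and matrix. Sparc and Col1a2 came next, with signals of 283278 and 270783, followed by Saa3, which codes for an acute-phase protein, with a signal of 252578. The 100 brightest genes carried 25.4% of the summed signal of the named genes and the 1000 brightest 67.0%. Some genes of secreted inflammatory proteins were picked after their values were seen and form no list. The chemokine genes Cxcl11, Cxcl1, Cxcl5, Ccl2, Cxcl12 and Ccl7 stood at 99.82, 99.5, 99.47, 99.36, 98.21 and 98.15, Lcn2 (lipocalin 2) at 99.1, C3 (complement) at 99.31 and Il6 at 94.5. In the chemokine family as a whole 19 of 35 genes were on (54.3%), close to the 56.5% of all named genes, and the family's median percentile was 52.3 against 61.4, so that the family as a whole did not stand out.

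Probes of the same gene often differed. Of 11134 genes with several probes, 4036 were on at all, 2714 at none and 4384 (39.4%) at some. Where all were on, the probes of a gene spanned a median of 15.3 percentile points. Repeated spots of the same probe differed far less, with a median SD of 0.039 on the log2 scale over 282 probes printed 10 times, which is error within the array only. In 420 genes a lone bright probe was on while every other was not above background, and 53.1% of these were printed below the middle row, against 49.3% of other bright probes. A spot was called uneven when its pixel SD over mean exceeded 0.26. This limit was the 99th percentile of spots well above background in the upper rows, which largely fixes the share there. By this limit uneven spots were more frequent below the middle row, with 758 uneven probes on there and 144 above it. Their part in the calls of single genes was not tested.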

How the data were processed

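One array of vehicle-treated mDE6 cells was analysed. The authors quantified the array with Agilent Feature Extraction. The file header gives its version as 10.7.1.1 and the submitters' processing notes as 9.5.1.1. The intensity deposited for each spot is its brightness after background subtraction and spatial detrending, and arrays were not scaled to each other in it. A second deposited table holds linear intensity values that the authors normalized across the pair of arrays (median 20.4 in the vehicle column, not centred); its method is not given in the sources used here, and it served as an alternative. The study's methods name a human array, whereas the file headers name a mouse design and build mm9.

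Spots with an outlier flag (746) were left out and spots of the same probe averaged. A probe was on when more than 50% of its spots were marked well above background, which in this software required a signal over 13 times the background error and a background test at 0.01. Percentiles were computed over all probes kept, in Python 3.11.15 (pandas 2.3.3, numpy 2.4.6), and figures were drawn with matplotlib 3.10.9. Probes were named through the gene table of assembly GRCm38.p6, by accession (32611), symbol (10109) or synonym (511), and 12741 probes had no name. The steps were tested on simulated data.

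The 40 gene lists hold 773 genes. The lists and the array were chosen with earlier results of these data known. Genes that could be named were members of the lists and the 30 brightest genes, with homeobox, receptor and ligand genes at or above percentile 90 taken first, besides genes said to be chosen after their values were seen. The alternatives were other calls, probe rules and spot filters, a normexp correction of the raw signals (offset 50, R 4.3.3, limma 3.58.1), the deposited normalized table, other percentile bases and RefSeq probes only. The array of CHIR99021-treated cells was not used here, and a few list members are not reported here by name.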

Additional observations from a re-analysis of the deposited data

How the results depend on the processing

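The number of named genes on stayed within 1.5 times of 13924 in every alternative except the upper rows of the array alone, where 8624 of 15875 genes were on. For simple and general epithelium (32.5% on) the share was 65% under the less strict call, 15% above the 99th percentile of the negative control spots and 17.5% with over 50% of a gene's probes required. Under the less strict call, which 70.3% of all named genes met, the shares of stratified epithelium, dental epithelium and ameloblast genes were 72.4%, 82.1% and 50%. The first pair of lists thus lay above all named genes under this call, and the ameloblast list below. For the dental mesenchyme the share was 72% with over 50% of the probes and 64.7% in the upper rows, and the mesenchyme and fibroblast share was 100% in the upper rows (26 of 26 genes). The upper rows alone hold fewer of the probes; beyond that the cause of these shifts was not tested. Normexp correction, the deposited normalized table and another percentile base change levels but not calls, which come from the deposited flags. A less strict use of outlier flags, chosen after seeing the data, raised the count to 14019 of 24813 genes. Among 265 of the genes named in the text and measured, 24 lost their call with over 50% of the probes required, among them Cdh2, Trp63, Ovol2, Six2, Lhx6, Lef1, Fgfr2 and Smo. Above the 99th percentile of negative controls 13 lost it, among them Krt14, Krt18, Krt7 and Klk4. Counted in the upper rows only, 14 of those with a probe there lost it, among them Sema3a, Lef1, Six2, Lhx6 and Lrp5. No paired analysis was possible because only the vehicle array was used. The limit of each value is the single array, and background limits what can be said of genes not on.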
